A study of Mus musculus with 2 samples.

Results

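The genes listed here serve the lipid barrier of the epidermis and were followed through the keratinocyte states of mouse dorsal skin. They are the lipoxygenase genes Alox12b, Aloxe3 and Alox12e and the ceramide genes Elovl4, Cers3, Ugcg, Abca12, Smpd1 and Pnpla1. They were listed by name and not by a rule on their levels, though with earlier results of these data known. All 9 were among the 31053 genes of the count matrices. Single cells had been measured in 1 library of wild-type (WT) mice and 1 library of Chrna5-/- mice, knockout mice for the nicotinic acetylcholine receptor subunit alpha 5. Both groups were female, 6 to 8 weeks old and given vaseline, the cream base, on the back, and the protocol has mice killed on day 7. The strain was given as C57BL/6 in the sample labels, as C57BL/6N for the backcross and as C57BL/6J for the tissue work, and the tissue protocol names imiquimod where all sample labels name vaseline. Skin pieces went through a collagenase digest, and cells negative for SytoxBlue, a dead-cell stain, were sorted. How many mice each library holds, and which stretch of Chrna5 is deleted, is not given in the sources used here. With 1 library per genotype every difference below is a difference between 2 libraries, and no test across animals was possible.

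The outer barrier of the skin is a stack of lipid sheets between dead, flattened keratinocytes. Keratinocytes leaving the basal layer elongate fatty acids to extreme lengths, join them to a sphingoid base as ceramides, mask these as glucosylceramides and pack them into lamellar granules. The linoleate ester on the longest ceramides is then oxidised by a pair of lipoxygenases so that the lipid can be bound to the protein envelope of the cornified cell. Loss of several of these enzymes in people gives ichthyosis, a scaling of the skin with water loss.

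The 3 lipoxygenase genes lie on mouse chromosome 11 (GRCm38, GENCODE vM21 gene models). Aloxe3 (ENSMUSG00000020892) spans chr11:69125896-69149115 on the plus strand and Alox12b (ENSMUSG00000032807) begins 7873 bases after its end, at chr11:69156989-69169792 on the same strand. Alox12e (ENSMUSG00000018907) lies 1145817 bases further on, at chr11:70315610-70322628 on the minus strand. The other members lie apart. Ugcg spans chr4:59189257-59222833 (plus), Elovl4 chr9:83778692-83806277 (minus), Cers3 chr7:66743504-66823691 (plus), Smpd1 chr7:105554360-105558389 (plus), Abca12 chr1:71242276-71414910 (minus) and Pnpla1 chr17:28858411-28890309 (plus). RefSeq promoter windows of 250 bases before to 50 after the gene start (GRCm38.p6) were matched for 8 members, not for Aloxe3. Shown 5′ to 3′ on the strand of the gene are the windows of the 3 matched members whose knockout level was called lower in more than 1 cell state, at chr11:69156822-69157121, chr11:70322481-70322780 and chr4:59189300-59189599 in this order. Capitals mark a match to one of the motifs searched, and the RefSeq starts of all 3 genes differ from the GENCODE starts above.
Alox12b: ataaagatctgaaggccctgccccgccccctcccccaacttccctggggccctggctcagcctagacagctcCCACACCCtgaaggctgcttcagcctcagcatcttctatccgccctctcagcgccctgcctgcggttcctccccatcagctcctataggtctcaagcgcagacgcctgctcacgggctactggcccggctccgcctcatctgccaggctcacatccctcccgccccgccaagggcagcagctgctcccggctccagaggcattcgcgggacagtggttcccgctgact
Alox12e: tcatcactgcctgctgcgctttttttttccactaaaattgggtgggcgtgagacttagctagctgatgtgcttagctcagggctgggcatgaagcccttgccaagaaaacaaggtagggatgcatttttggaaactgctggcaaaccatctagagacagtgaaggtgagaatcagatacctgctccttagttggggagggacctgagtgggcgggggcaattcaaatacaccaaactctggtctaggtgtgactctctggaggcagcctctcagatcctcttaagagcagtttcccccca
Ugcg: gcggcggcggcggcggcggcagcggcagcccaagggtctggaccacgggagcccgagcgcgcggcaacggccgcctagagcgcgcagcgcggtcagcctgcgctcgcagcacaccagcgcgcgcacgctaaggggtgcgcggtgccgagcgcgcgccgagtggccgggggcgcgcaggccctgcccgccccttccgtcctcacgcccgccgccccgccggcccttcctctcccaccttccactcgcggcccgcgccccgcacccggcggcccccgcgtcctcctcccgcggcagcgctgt
The 3 windows differed in base composition, with 66.0% G and C for Alox12b, 50.7% for Alox12e and 81.3% for Ugcg. On both strands, 6 motifs of epidermal regulators were searched, and the matches found lay in different windows. The KLF box GGGTGTGG was found once among the 8 members, in Alox12b, 178 bases before the start on the reverse strand, and 3.56% of 32851 promoters hold it. The C/EBP motif TTGCNNAA was found in Pnpla1 only and in 10.8% of promoters. AP-1 (TGANTCA, 7.81% of promoters), the Grainyhead-like site (AACCNGTT, 2.09%), the p63 motif (0.712%) and the PPAR DR1 motif (0.0396%) did not occur in these 8 windows. These are matches of letters, not sites shown to be bound, and no match says only that the letters are not in this window.

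The WT library held 10741 barcodes and 139673385 unique molecular identifiers (UMIs, counted RNA molecules), and the knockout library 9696 barcodes and 125458721 UMIs, at median depths of 12245 and 12223.5 UMIs per barcode. After filters and doublet removal, 9673 and 8869 cells were kept, and 34 barcodes occurred in both libraries. Of these, 28 WT and 30 knockout cells were kept, and without them 9 pairs of member and state were called lower, as with them. The targeted gene, Chrna5, gave 11 UMIs in all kept WT cells and 2 in all kept knockout cells, a ratio of knockout over WT level of 0.202 (95% interval 0.0218 to 0.926), which at this depth, and with the deleted stretch unknown, checks the genotype labels only weakly.

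Cells were clustered without the members and without the other lipid genes among the clustering genes, so that their levels did not define the states. Of 22 clusters, 12 were keratinocyte-like, with 7565 WT and 7039 knockout cells. They fell into a basal-like state (clusters 5, 7, 8, 9 and 15, with 4041 and 4215 cells), a suprabasal-like state led by Krt1 and Krt10 (clusters 2 and 3, 1232 and 1491 cells), an upper hair follicle-like state led by Krt79 (cluster 1, 603 and 342 cells), an outer root sheath-like state (cluster 6, 623 and 223 cells) and cells led by Fst and Sostdc1 (clusters 4 and 12, 934 and 716 cells). A hair matrix-like cluster had too few cells to compare. Clusters 5, 7, 8 and 15 had no basal marker among their 10 leading genes and were named from marker levels alone. The cluster mix differed between the libraries: cluster 8 held 1374 WT and 713 knockout cells and cluster 9 held 409 and 1242, and the suprabasal-like state was 844 cells of cluster 2 and 388 of cluster 3 in WT against 755 and 736 in the knockout. No granular-layer and no sebaceous cluster was found.

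UMIs were summed over the cells of a state in each library and given as CPM, the gene's UMIs scaled to a common total of all UMIs. A gene was called lower or higher in the knockout library when its CPM differed by at least 1.5-fold and the exact 95% interval of the ratio left out 1, among genes with at least 20 UMIs in both libraries together. Intervals cover counting error only, not the spread between animals. Over all keratinocyte-like cells, 2 of 9 members were called lower, against 7.84% of 14621 measured genes, and 0 were called higher, against 2.67%. In the basal-like state 3 of 9 were called lower (5.11% of all genes) and 0 higher (3.84%), but of these 3 only Ugcg is not read as background: Alox12b and Alox12e there were no higher than free RNA allows. In the suprabasal-like state 3 of 9 were called lower (4.73%) and 0 higher (3.65%), and in the upper hair follicle-like state 2 of 9 were called lower (3.85%) and 0 higher (2.5%). Of 8 measured members in the Fst and Sostdc1-led cells 1 was called lower (2.98%) and 0 higher (3.43%), and of 6 measured in the outer root sheath-like state none was called lower (5.03%) or higher (8.85%). The members' median log2 ratio was -0.28 over all keratinocyte-like cells, where that of all genes was -0.03. In the basal-like, suprabasal-like and upper hair follicle-like states it was -0.33, -0.22 and -0.35, and the all-gene medians there lay between -0.018 and -0.003.

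**Figure D1:**
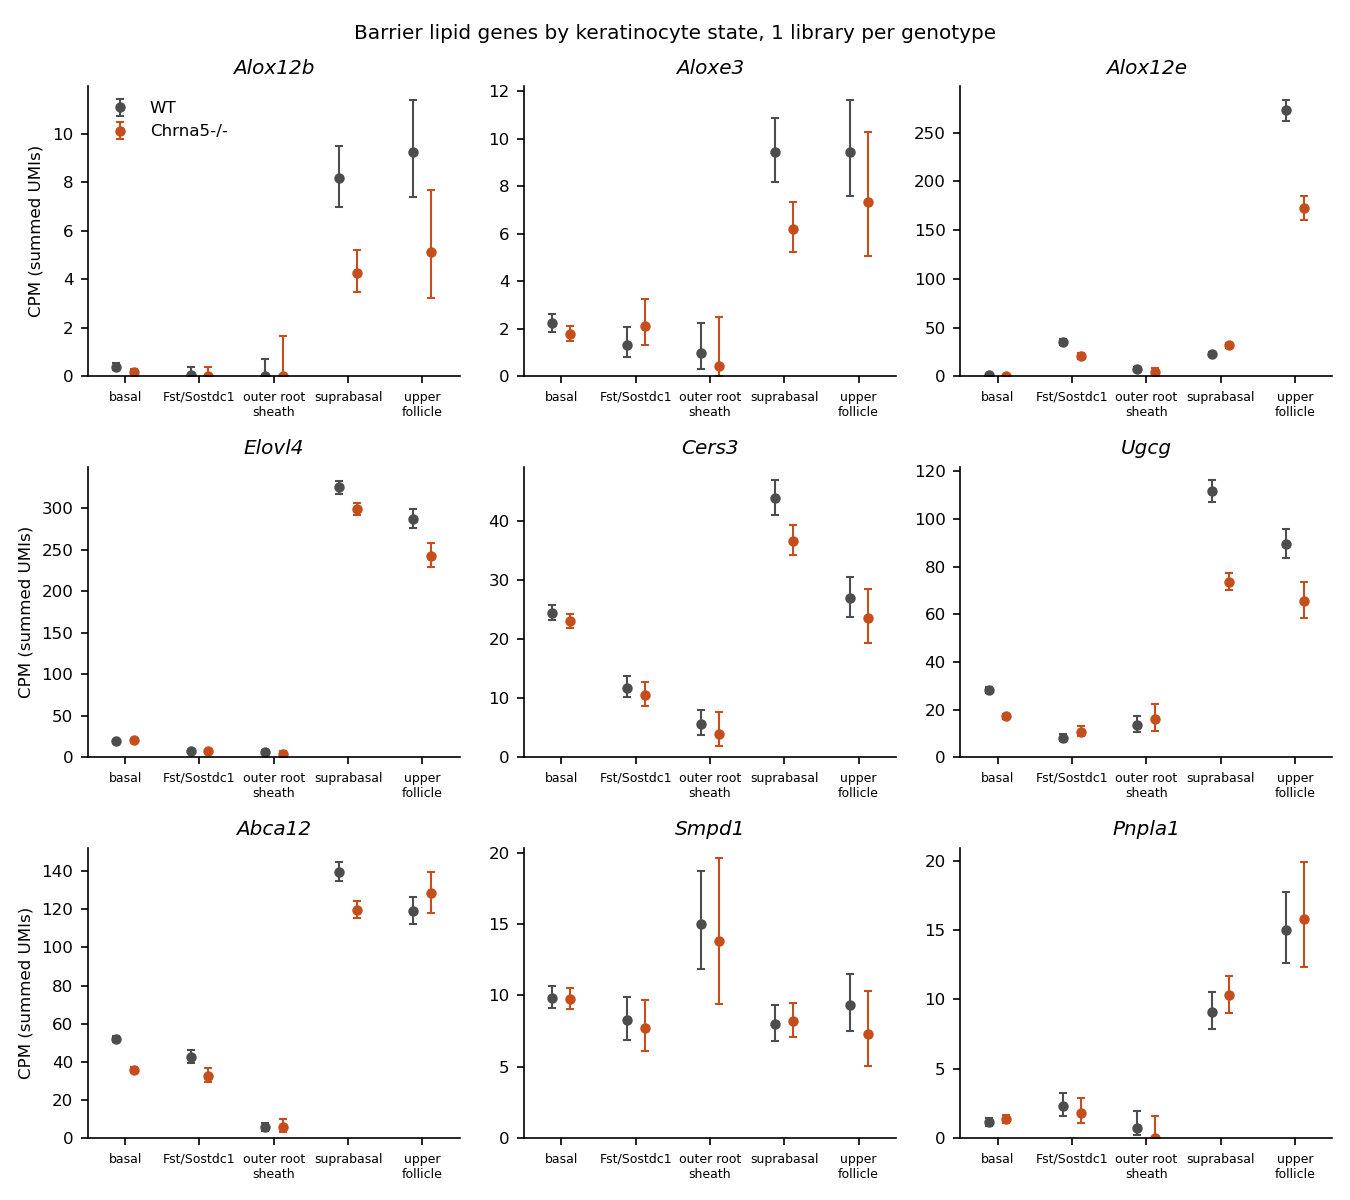
Level of each gene (CPM of summed UMIs, linear axis from 0) in 5 keratinocyte states, WT in grey and Chrna5-/- in orange, 1 library each. Bars are exact Poisson 95% intervals. Alox12b, Aloxe3, Elovl4, Ugcg, Abca12 and Pnpla1 stand high in both the suprabasal-like state and the upper hair follicle-like one, Alox12e is highest in the upper hair follicle-like state (273 and 173 CPM), and Smpd1 lies between 7.34 and 15.0 CPM in all 5.

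**Figure D2:**
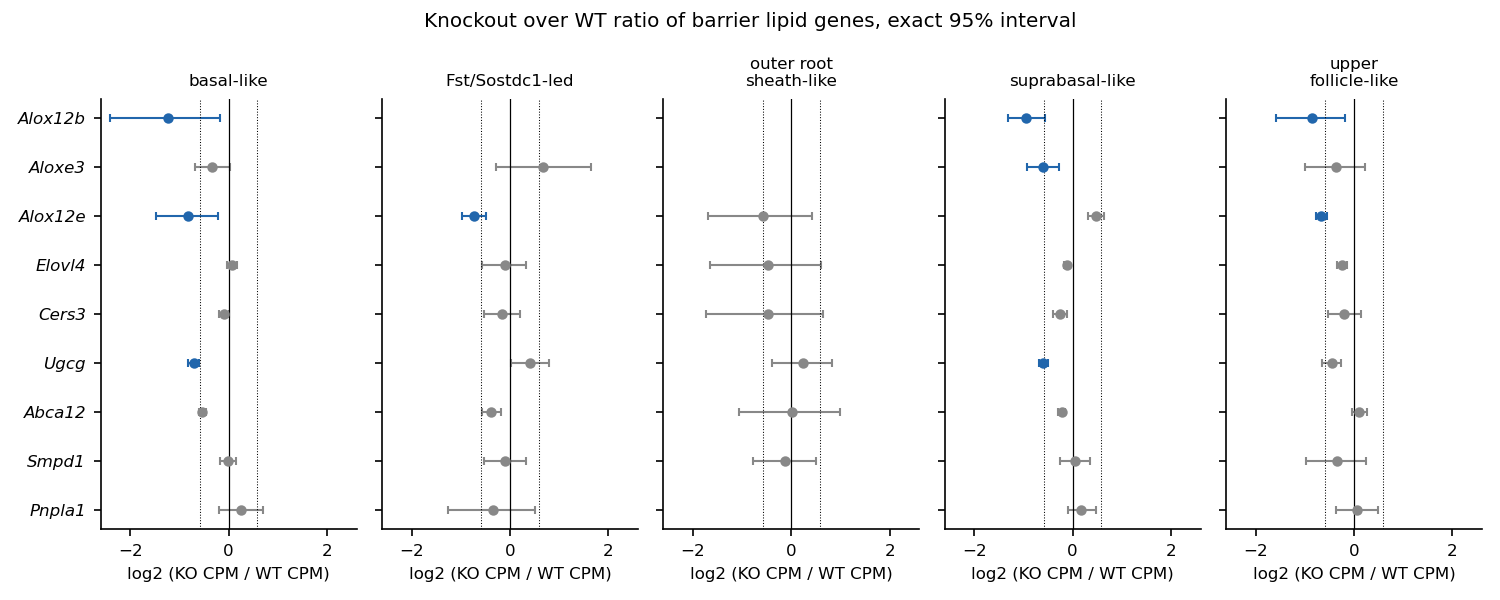
Log2 ratio of knockout over WT CPM for each gene in each state, with exact 95% intervals; dotted lines mark a 1.5-fold difference, blue marks genes called lower and grey genes called neither way. Blue points are Alox12b, Alox12e and Ugcg in the basal-like, Alox12e in the Fst and Sostdc1-led, Alox12b, Aloxe3 and Ugcg in the suprabasal-like and Alox12b and Alox12e in the upper hair follicle-like state.

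Alox12b encodes the lipoxygenase that first oxidises the linoleate of the longest ceramides. It was a gene of differentiated cells in both libraries, at 8.17 CPM in WT and 4.26 CPM in knockout suprabasal-like cells, a ratio of 0.521 (0.402 to 0.673). In the upper hair follicle-like state its level was 9.23 CPM in WT and 5.11 CPM in the knockout, a ratio of 0.554 (0.334 to 0.886). The knockout library was lower in both places, and WT levels in these 2 states did not differ beyond their intervals. Part of the suprabasal-like difference went with the cluster mix. Cluster 2 held 844 of 1232 WT and 755 of 1491 knockout suprabasal-like cells, and 162 of the WT and 95 of the knockout Alox12b UMIs. Within cluster 2 the levels were 10.5 and 6.94 CPM, a ratio of 0.662 (0.508 to 0.858). The suprabasal-like call was lost after thinning each cell to 5000 UMIs, and the upper hair follicle-like call after thinning and, at a log2 ratio of -0.27, with a mean over cells in place of the sum. The share of suprabasal-like cells with at least 1 Alox12b UMI was 7.14% (5.77 to 8.73) in WT and 3.96% (3.03 to 5.07) in the knockout. Thinned to 5000 UMIs per cell, with 115 WT and 220 knockout cells too shallow and left out, the shares were 3.13% and 1.73%. None of 431 WT and 484 knockout lymphoid-like cells, which should lack the gene, had an Alox12b UMI, at median depths of 2627 and 2831 UMIs against 15951.5 and 15171 in suprabasal-like cells. In basal-like cells only 25 WT and 11 knockout UMIs were found, in 0.569% and 0.261% of cells, both under the 0.852% and 0.759% that the empty lymphoid-like counts allow, so the call there rests on a level not separable from free RNA.

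Alox12b was concentrated in few cells. The 1% of keratinocyte-like cells with the highest Alox12b level held 76.0% of its WT UMIs and 94.7% of its knockout UMIs. In the upper hair follicle-like state, cells with a UMI of Flg, which encodes the granular-layer protein filaggrin, were 36 of 603 in WT and 11 of 342 in the knockout, and they held 73 of 86 and 12 of 23 Alox12b UMIs. Among the Flg cells of that state the Alox12b level was 84.5 CPM in WT and 58.2 CPM in the knockout, a ratio of 0.689 (0.340 to 1.28). Without them it was 1.54 and 2.56 CPM, a ratio of 1.67 (0.676 to 4.03). Both intervals held 1. Flg was itself lower in the knockout library, so cells with and without its UMI need not be like cells in the 2 libraries. Where the difference lay in this state cannot be told from the split. In the suprabasal-like state the ratio without Flg cells was 0.526 (0.397 to 0.693), close to the value with them. Some granular-layer genes moved with these sums: Flg itself was at 127 CPM in WT and 30.01 CPM in knockout upper hair follicle-like cells. Lor (loricrin) was at 16.5 and 5.87 CPM in suprabasal-like cells. In cluster 2 of that state, its UMIs lay in few cells, 301 in 33 WT cells and 56 in 42 knockout cells. Its ratio in cluster 3 was 1.18 (0.783 to 1.80), and the Flg ratio in cluster 2 was 0.892 (0.600 to 1.32). The 7 granular markers summed to 96.6 CPM in WT and 91.1 CPM in knockout suprabasal-like cells, with 1 of 3 measured called lower. Of 7 granular markers, 6 were measured and 4 called lower over all keratinocyte-like cells, with a summed level of 61.0 CPM in WT and 43.5 CPM in the knockout; their part in the Alox12b difference was not tested. Among suprabasal-like cells, the 58 WT and 81 knockout cells with a Lor UMI held 13 and 2 Alox12b UMIs. The splits by Flg, Krt79 and Lor were chosen after seeing the data.

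Aloxe3 encodes the partner lipoxygenase, which turns the product of the Alox12b enzyme into an epoxy alcohol. In suprabasal-like cells it was at 9.44 CPM in WT and 6.22 CPM in the knockout, a ratio of 0.658 (0.527 to 0.822), which passed the call narrowly and lost it in 5 of 13 other settings: a stricter cell filter, no doublet removal, Leiden resolution 2, clusters weighted alike and median of ratios scaling. Within suprabasal-like clusters 2 and 3 the ratios were 0.765 (0.602 to 0.970) and 0.770 (0.390 to 1.56), neither of them called. The share of suprabasal-like cells with an Aloxe3 UMI was 12.7% in WT and 7.65% in the knockout, and 5.19% and 3.15% after thinning, with none in lymphoid-like cells. In the upper hair follicle-like state the levels were 9.45 and 7.34 CPM, a ratio of 0.777 (0.504 to 1.17), and in the basal-like state 2.24 and 1.78 CPM, a ratio of 0.796 (0.620 to 1.02). Neither difference was larger than its counting interval. Aloxe3 was less restricted to differentiated cells than its neighbour Alox12b: its suprabasal-like level was 4.23 times its basal-like level in WT (3.39 to 5.28), where for Alox12b the factor was 21.2 (13.9 to 33.7).

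Alox12e encodes the epidermal-type arachidonate lipoxygenase of the mouse, and its pattern was unlike that of the other lipoxygenases. WT upper hair follicle-like cells held 273 CPM (262 to 284) and knockout ones 173 CPM (161 to 185), a ratio of 0.633 (0.583 to 0.686). Suprabasal-like cells held 22.9 CPM in WT and 31.7 CPM in the knockout, a ratio of 1.39 (1.23 to 1.56) in the opposite direction, under the 1.5-fold needed for a call. The share of these cells with an Alox12e UMI was not higher, at 14.7% in WT and 13.9% in the knockout. With a mean over cells in place of the sum, the suprabasal-like log2 ratio went from 0.47 to 0.10. In Fst and Sostdc1-led cells the levels were 34.9 and 21.1 CPM, a ratio of 0.604 (0.512 to 0.711), a call lost at the finer clustering with Leiden resolution 2. In outer root sheath-like cells they were 7.30 and 4.90 CPM, a ratio of 0.671 (0.309 to 1.34) within counting error. The knockout library was thus called lower in the upper hair follicle-like and the Fst and Sostdc1-led cells and had the higher value, not called, in the suprabasal-like state. The difference between these ratios was not tested. Of all keratinocyte Alox12e UMIs, the upper hair follicle-like cells gave 70.0% in WT and 44.0% in the knockout, and suprabasal-like cells 12.9% and 41.4%. Basal-like levels of 0.925 and 0.519 CPM lay below the 4.30 and 2.76 CPM of lymphoid-like cells and are read as background, although the ratio passed the call rule. The share of upper hair follicle-like cells with an Alox12e UMI was 68.0% (64.1 to 71.7) in WT and 58.8% (53.4 to 64.0) in the knockout; after thinning, which left out 87 and 70 cells, it was 50.6% and 46.0%, with intervals that overlapped. In lymphoid-like cells the share was 1.16% and 0.826%.

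Over all keratinocyte-like cells Alox12e stood at 31.2 CPM in WT and 16.4 CPM in the knockout, a ratio of 0.525 (0.496 to 0.556). This sum moved with cells of the upper follicle. Keratinocyte-like cells with a UMI of Krt79, a keratin of the upper follicle, were 21.0% of cells in WT and 10.2% in the knockout and held 79.8% and 48.8% of the Alox12e UMIs. Within them the level was 115 CPM in WT and 79.9 CPM in the knockout, a ratio of 0.696 (0.644 to 0.751). In the keratinocyte-like cells without Krt79 it was 8.04 and 9.33 CPM, a ratio of 1.16 (1.05 to 1.28). The pooled keratinocyte-like cells were therefore lower in the knockout, and those without a Krt79 UMI slightly higher. As Krt79 differed between the libraries too, the cells without its UMI need not be like cells in both. Krt79 itself was at 458 CPM in WT and 178 CPM in knockout keratinocyte-like cells, and the upper hair follicle-like share of kept cells was 6.23% (5.76 to 6.73) in WT and 3.86% (3.46 to 4.28) in the knockout. Of 7 upper follicle markers, 5 were called lower over all keratinocyte-like cells, with summed levels of 3064 and 1444 CPM, so a smaller share of upper follicle-like cells and a lower level within them stood side by side. The part of each in the sum was not tested.

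**Figure D3:**
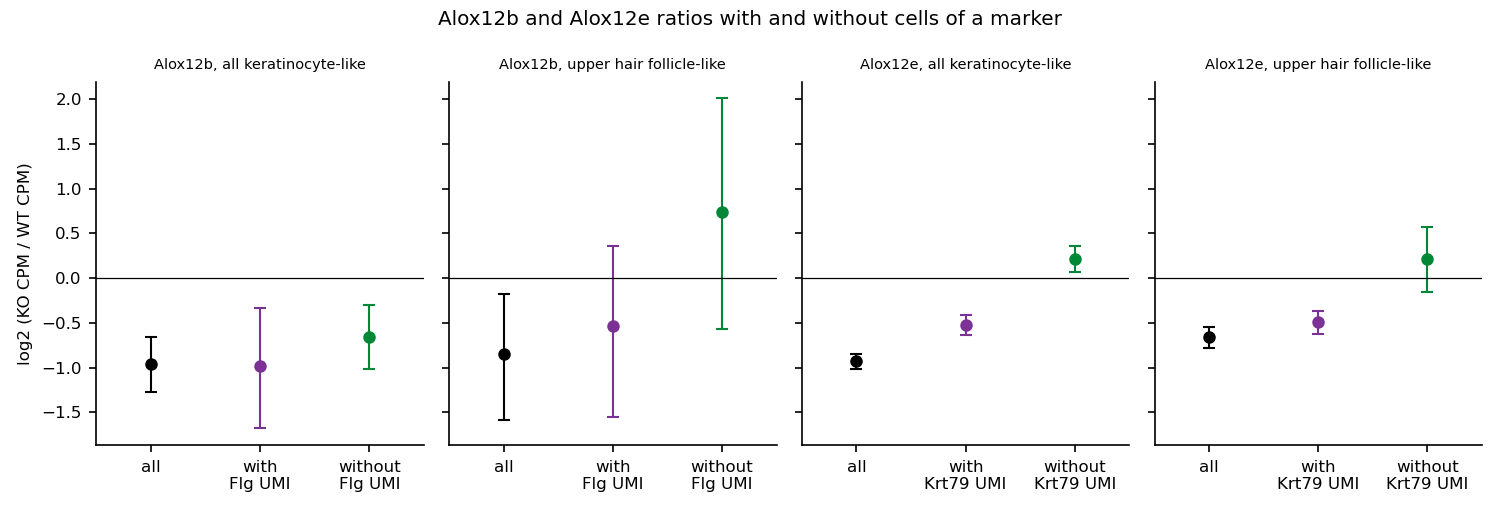
Log2 ratio of knockout over WT CPM, with exact 95% intervals, for Alox12b and Alox12e in all cells of a pool, in its cells with a UMI of the named marker and in those without. Alox12e changed sign without Krt79 cells (ratio 1.16 over all keratinocyte-like cells), and Alox12b changed sign without Flg cells in the upper hair follicle-like state (ratio 1.67, interval 0.676 to 4.03) but not over all keratinocyte-like cells.

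Among single clusters, Alox12e was called higher in suprabasal-like cluster 2 (4.33% of genes were called higher there), at 26.5 CPM in WT and 49.2 CPM in the knockout, a ratio of 1.86 (1.64 to 2.10). It was called lower in suprabasal-like cluster 3 (3.31% of genes), at 11.8 and 6.12 CPM, a ratio of 0.518 (0.353 to 0.758). The same state thus held clusters that differed in opposite directions. In cluster 2 the difference lay in UMIs per cell as well as in positive cells: 17.9% of WT and 23.4% of knockout cells had an Alox12e UMI, and over the suprabasal-like state the positive cells held a mean of 2.59 UMIs in WT and 3.53 in the knockout. Krt79 was at 10.1 and 4.09 CPM in cluster 2, and Defb6, also of the upper follicle list, at 166 and 58.0 CPM, both lower in the knockout as Alox12e was higher. Cst6 of the same list was higher with it, at 196 and 260 CPM, a ratio of 1.33 (1.26 to 1.39). Alox12e was also called lower in cluster 4 (3.17% of genes), cluster 12 (3.58%) and cluster 5 (3.67%), the last at 1.38 and 0.151 CPM, which is below the lymphoid-like level.

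**Figure D4:**
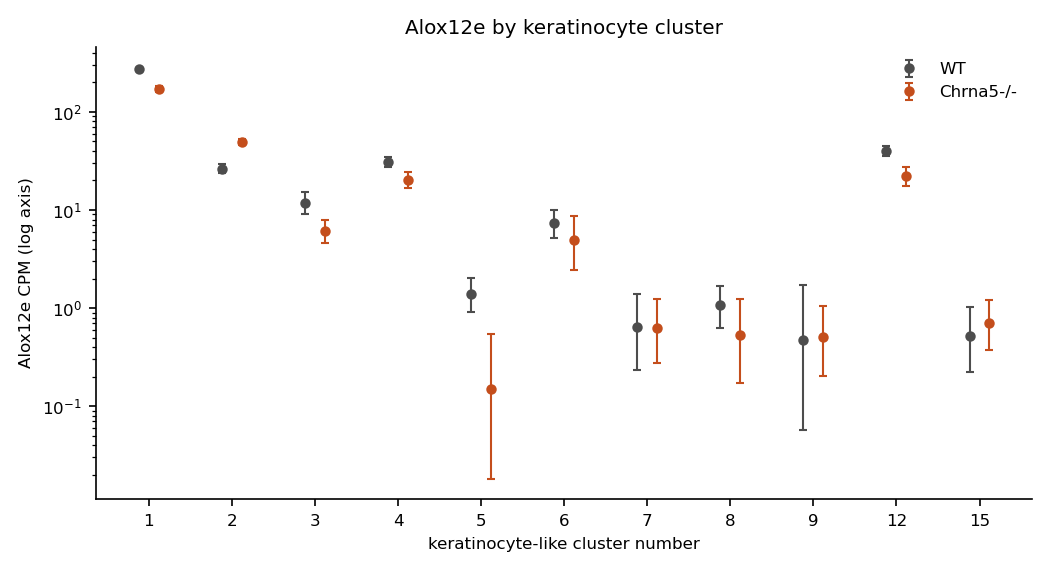
Alox12e level (CPM, log axis) in each keratinocyte-like cluster with at least 100 cells in both libraries, with exact Poisson 95% intervals, WT in grey and Chrna5-/- in orange. Cluster 1 is the upper hair follicle-like state, and cluster 2 is the one in which the knockout library (49.2 CPM) lies above WT (26.5 CPM) with intervals apart.

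Elovl4 elongates saturated fatty acids to the lengths found in barrier ceramides. It rose steeply with differentiation, at 325 CPM in WT and 299 CPM in knockout suprabasal-like cells, which was 16.4 times (15.5 to 17.5) and 14.4 times (13.6 to 15.3) the basal-like level. The ratio of knockout over WT was 0.919 (0.888 to 0.951) in suprabasal-like cells and 1.05 (0.970 to 1.13) in basal-like cells, where the levels were 19.8 and 20.7 CPM. Upper hair follicle-like cells held 288 and 243 CPM, a ratio of 0.845 (0.786 to 0.906). Elovl4 was therefore called neither way in any state, and its pooled suprabasal difference, although outside counting error, was small. It was not shared by the clusters of that state. Within clusters 2 and 3 the ratios were 1.07 (1.03 to 1.11) and 0.889 (0.815 to 0.970). With clusters weighted alike, suprabasal-like Elovl4 was at a log2 ratio of 0.016. Within basal-like cluster 7, led by genes of dividing cells, it was at 11.5 CPM in WT and 18.4 CPM in the knockout, a ratio of 1.60 (1.27 to 2.03), and was called higher (2.82% of genes there). In basal-like cluster 15, also led by such genes, it was at 28.9 and 29.4 CPM, a ratio of 1.02 (0.897 to 1.16). In outer root sheath-like cells (6.15 and 4.45 CPM) and Fst and Sostdc1-led cells (7.68 and 7.12 CPM) it did not differ beyond its intervals from the 7.75 and 6.91 CPM of lymphoid-like cells.

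Cers3, the ceramide synthase that takes these longest acyl chains, was at 43.9 CPM in WT and 36.7 CPM in knockout suprabasal-like cells, a ratio of 0.835 (0.759 to 0.918). In basal-like cells it was at 24.5 and 23.0 CPM, a ratio of 0.940 (0.876 to 1.01). Its rise from the basal-like to the suprabasal-like state was shallow, 1.79 times in WT and 1.59 times in the knockout, against 16.4 and 14.4 times for Elovl4. The order of its levels in both libraries was suprabasal-like, then upper hair follicle-like and basal-like without a difference beyond their intervals, then Fst and Sostdc1-led, then outer root sheath-like cells. No state passed the call.

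Ugcg encodes glucosylceramide synthase, which adds the glucose that masks a ceramide for transport. Its level was 112 CPM in WT and 73.7 CPM in knockout suprabasal-like cells, a ratio of 0.661 (0.620 to 0.704). In basal-like cells it was 28.2 and 17.2 CPM, a ratio of 0.610 (0.566 to 0.657), and in upper hair follicle-like cells 89.5 and 65.6 CPM, a ratio of 0.732 (0.639 to 0.837). Ugcg was lower in the knockout in all 3 of these states and called so in the basal-like and suprabasal-like ones. Cells with a Ugcg UMI were 62.3% in WT and 46.7% in the knockout among suprabasal-like cells and 34.8% and 23.7% after thinning. In the follicular outer root sheath-like and Fst and Sostdc1-led cells the direction was the other one, with ratios of 1.17 (0.764 to 1.78) and 1.32 (1.01 to 1.73), neither called. Part of the pooled difference went with the cluster mix: within suprabasal-like clusters 2 and 3 the ratios were 0.745 (0.695 to 0.797) and 0.937 (0.775 to 1.13), and neither the basal-like nor the suprabasal-like call remained with clusters weighted alike or at Leiden resolution 2, nor the suprabasal-like one with median of ratios scaling. All 5 basal-like clusters nonetheless had ratios under 1, from 0.562 in the dividing cells of cluster 7 to 0.786 in cluster 9, and it was called lower in clusters 7 (4.66% of genes) and 15 (4.65%). Lymphoid-like cells give no free RNA level for Ugcg, which they held at 374 CPM in WT and 316 CPM in the knockout.

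Abca12 encodes the transporter that loads glucosylceramide into lamellar granules. It was at 139.8 CPM in WT and 119.8 CPM in knockout suprabasal-like cells, a ratio of 0.857 (0.813 to 0.903). In basal-like cells it was at 52.0 and 36.0 CPM, a ratio of 0.692 (0.656 to 0.729) that lay just short of a call. In upper hair follicle-like cells the direction turned, at 119 and 128 CPM with a ratio of 1.08 (0.974 to 1.19), within counting error. Ratios were 0.769 (0.670 to 0.880) in Fst and Sostdc1-led and 1.00 (0.481 to 1.98) in outer root sheath-like cells. The Abca12 difference was thus largest in the basal-like state. There 46.1% of WT and 34.5% of knockout cells had a UMI, or 21.6% and 15.1% after thinning that left out 199 and 228 cells. With clusters weighted alike the basal-like log2 ratio went from -0.53 to -0.37. Within suprabasal-like clusters 2 and 3 the ratios were 0.915 (0.862 to 0.972) and 0.975 (0.867 to 1.10). Lymphoid-like cells showed a UMI in 1.16% and 0.207%.

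Smpd1 encodes acid sphingomyelinase, which makes ceramide from sphingomyelin in the extracellular space. It was the one member that did not rise with differentiation: suprabasal-like cells had 0.810 times (0.678 to 0.963) the basal-like level in WT and 0.842 times (0.712 to 0.991) in the knockout. Basal-like cells held 9.85 and 9.77 CPM and suprabasal-like cells 7.98 and 8.22 CPM, with ratios of 0.992 (0.888 to 1.11) and 1.03 (0.831 to 1.28). No difference in Smpd1 was detectable at this depth in any of the 5 states. Lymphoid-like cells held more of it than keratinocytes did, 71.5 CPM in WT and 38.7 CPM in the knockout. The ratio there, 0.541 (0.379 to 0.769), passed the call as lower. The share of all genes called lower was not counted in lymphoid-like or melanocyte-like cells.

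Pnpla1 encodes the transacylase that places linoleate on the longest ceramides, the step before the lipoxygenases. It was at 9.10 CPM in WT and 10.3 CPM in knockout suprabasal-like cells, a ratio of 1.13 (0.930 to 1.38). In upper hair follicle-like cells it was at 15.0 and 15.8 CPM, a ratio of 1.05 (0.778 to 1.41), and in basal-like cells at 1.17 and 1.39 CPM, a ratio of 1.19 (0.870 to 1.63). These intervals all held 1. After thinning to 5000 UMIs per cell, however, Pnpla1 was called higher in knockout suprabasal-like cells, at 6.09 and 10.7 CPM (log2 ratio 0.81), with a UMI in 2.95% of WT and 5.11% of knockout cells. The unthinned shares were 13.2% and 13.3%. Pnpla1 was thus not lower where Alox12b and Aloxe3, which act after it, were, and the difference between these ratios was not tested.

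The basal-like and suprabasal-like cells were next ordered by a score, the mean log level of Krt1, Krt10, Krtdap and Sbsn minus that of Krt5, Krt14, Col17a1 and Itga6, and divided into 5 bins of equal cell number over both libraries. The bins are ranges, not cell types, and 113 to 1416 cells lay within 0.1 of a bin edge. In the highest bin, with 971 WT and 1225 knockout cells, Krt1 and Krt10 were at ratios of 1.04 and 0.990, a likeness that the score, built on them, largely fixes. Krt2, a suprabasal keratin outside the score, was at 1.20 CPM in WT and 5.68 CPM in the knockout, a ratio of 4.75 (2.96 to 7.96). There Alox12b was at 9.51 CPM in WT and 4.85 CPM in the knockout, a ratio of 0.509 (0.393 to 0.657), and Aloxe3 at 9.80 and 6.27 CPM, a ratio of 0.639 (0.505 to 0.809). Pnpla1 in the same bin was at 10.8 and 10.96 CPM, a ratio of 1.02 (0.835 to 1.24). Lor, of the granular layer, was at 17.3 CPM in WT and 3.87 CPM in the knockout. Flg, of the same layer, was at 3.59 and 3.23 CPM, a ratio of 0.900 (0.628 to 1.29). Ugcg was lower in the knockout in all 5 bins, with ratios of 0.4998, 0.595, 0.620, 0.610 and 0.662 from the lowest to the highest and no interval that reached 1. Abca12 showed a graded pattern, with ratios of 0.569, 0.625, 0.669, 0.750 and 0.863, so its libraries came closer as the score rose. The cluster mix within a bin was not matched between the libraries. Elovl4 stayed between 0.871 and 1.23 and Smpd1 between 0.941 and 1.13, while Alox12e was at 1.36 (1.20 to 1.53) in the highest bin.

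**Figure D5:**
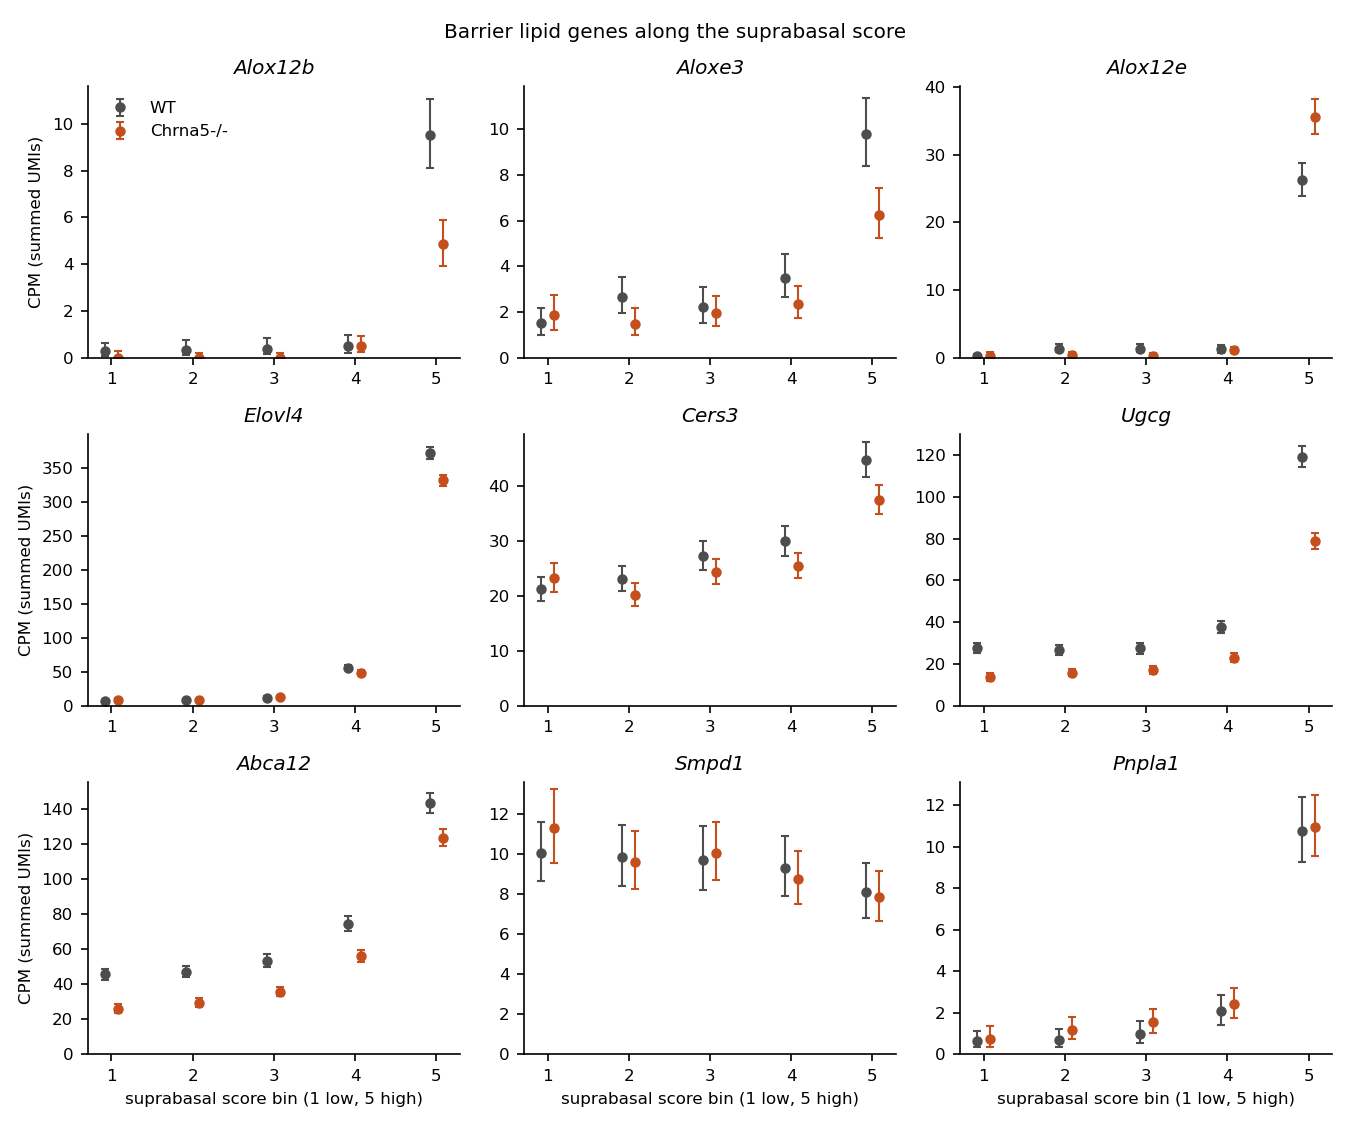
Level of each gene (CPM, linear axis from 0) in 5 bins of the suprabasal score over basal-like and suprabasal-like cells, WT in grey and Chrna5-/- in orange, with exact Poisson 95% intervals. The knockout library lies below WT in all bins for Ugcg and Abca12 and in the highest bin for Alox12b (9.51 against 4.85 CPM), whereas the intervals of Smpd1 overlap throughout.

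The wider pathway was described by 63 other genes of fatty acid elongation, ceramide synthesis and breakdown, sphingomyelin and glucosylceramide handling, acylceramide formation and lipid oxidation. Over all keratinocyte-like cells 54 were measured, of which 7 were called lower and 0 higher, beside 7.84% and 2.67% of all genes, and their median log2 ratio was -0.09 beside -0.03. The group of lipoxygenase and oxidised lipid genes held 4 of these among 9 measured. Nipal4, a known ichthyosis gene, was at 14.3 CPM in WT and 9.42 CPM in the knockout, a ratio of 0.660 (0.610 to 0.714). Sdr9c7, the dehydrogenase that follows the lipoxygenases, was at 0.309 and 0.102 CPM, a ratio of 0.331 (0.152 to 0.664) on 36 and 11 UMIs. Alox8 and Alox5ap were at ratios of 0.548 and 0.556 at under 1 CPM in both libraries, and Alox12, the highest of the group, at 1.05. Sgms2, which makes sphingomyelin from ceramide, was at 34.3 and 22.7 CPM, a ratio of 0.662 (0.630 to 0.697), while Scarb2 was the highest of its group at 1.11. Cers4 was at 5.03 and 2.71 CPM, a ratio of 0.539, with Sptlc3 the highest of ceramide synthesis at 1.25. Pnpla3 was at a ratio of 0.525 and Dgat2 at 1.03 among the acylceramide and triglyceride genes. The elongases and fatty acid activation genes ranged from 0.701 (Elovl1) to 1.12 (Cyp4f39) and the ceramide breakdown genes from 0.847 (Sgpl1) to 1.39 (Sphk1), with none called.

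Between the states the pathway genes differed in which were called. In suprabasal-like cells 2 of 50 were called lower and 1 higher, which as shares (4.73% and 3.65% of all genes) is no more than the background. Elovl1, an elongase of saturated fatty acids that acts before Elovl4, was at 136 CPM in WT and 84.7 CPM in the knockout, a ratio of 0.623 (0.587 to 0.660). Sgms2 was at 30.6 and 17.9 CPM, and Ephx2, an epoxide hydrolase, at 0.783 and 1.74 CPM. In basal-like cells, close to the 5.11% and 3.84% of all genes, 3 of 50 were called lower, Sgms2 (0.649), Alox8 (0.249) and Nipal4 (0.588), and 2 higher, the ceramidase gene Acer1 (1.54) and the sphingosine kinase gene Sphk1 (1.55), as ratios of knockout over WT. Both genes called higher in basal-like cells are of ceramide breakdown, where 7 of 9 measured genes were called neither way. At this background rate no pattern of that group is read from them. Upper hair follicle-like cells had 1 of 49 called higher (2.5% of all genes) and 0 lower (3.85%). The gene called was Sptlc3, of the first step of sphingoid base synthesis, at 21.1 and 31.8 CPM. Fst and Sostdc1-led cells had 3 of 48 called higher (3.43% of all genes), Sptlc3 (1.66), Tgm1 (1.79) and Acer1 (1.92). Of the 48, 1 was called lower (2.98%), Nipal4 (0.476). Outer root sheath-like cells had 7 of 44 called lower (5.03% of all genes), with ratios of 0.248 to 0.656 (among them Sgms1, Sgms2, Dgat2, Ephx1, Ephx2 and Tgm1). Called higher there were 3 of 44 (8.85%), Ormdl1, Smpd4 and Gltp, with ratios of 1.57 to 1.71. This state had 223 knockout cells, and the median log2 ratio of all genes was 0.10. Scaling by trimmed mean of M values shifted every log2 ratio there by -0.12. Sgms2 was called lower in 3 of the 5 states.

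Across 24 profiles, from 12 keratinocyte-like clusters in each library, Cers3 and Abca12 had the most alike levels of any member pair measured this way (Pearson r of log2(CPM + 1) 0.934), followed by Elovl4 and Abca12 (0.828). Alox12e was little like Cers3 (0.02). These values describe profiles that share 2 libraries and their depth. Among 9096 genes with at least 1000 UMIs, the nearest to Elovl4 were Krt1 (0.971) and Atp6v0b (0.960), and the nearest to Alox12e were Klk5 (0.926), a peptidase of the outer epidermis, and Hadh (0.925). Cers3 was nearest to Rab22a (0.974) and Sfn (0.972), and Abca12 to Nipal1 and Il17rc (both 0.972). Ugcg was nearest to Sult2b1 (0.916), which sulphates cholesterol, and Tuft1 (0.915), and Smpd1 to Yipf3 (0.9502) and Snx14 (0.940). Alox12b, Aloxe3 and Pnpla1 had too few UMIs for this comparison.

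Outside the keratinocytes, Ugcg was high in lymphoid-like cells (above) and melanocyte-like cells, at 179 CPM in WT and 137 CPM in the knockout, a ratio of 0.765 (0.612 to 0.948). Smpd1 in melanocyte-like cells was at 143 and 75.2 CPM, a ratio of 0.524 (0.389 to 0.695), which passed the call as lower, as in lymphoid-like cells. Elovl4 was low in these other classes and yet called higher in the knockout in dermal papilla-like cluster 0 (3.62% of genes were called higher there), melanocyte-like cluster 11 (10.4%), the unnamed clusters 13 (6.53%) and 17 (13.6%) and fibroblast-like cluster 18 (4.17%). Abca12 was called higher in clusters 11 and 17 too, at 8.10 and 36.2 CPM and at 30.05 and 93.7 CPM in WT and knockout. The Elovl4 levels reached 45.8 CPM at most, in cluster 17, which is shallow, against 325 and 299 CPM in suprabasal-like cells. In melanocyte-like cells 18 WT UMIs of Elovl4 lay in 6.49% of 185 cells and 28 knockout UMIs in 7.48% of 107 cells. Abca12 UMIs there were in 9.73% of WT and 10.3% of knockout cells, at median depths of 6129 and 3027 UMIs. Alox12b was not found in melanocyte-like or lymphoid-like cells of either library.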

How the data were processed

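Single-cell RNA of dorsal skin was measured in 1 WT and 1 Chrna5-/- library. The deposited matrices hold UMI counts per gene and cell barcode, and the software version 3.1.0 stands in them per the file headers. Cell Ranger 3.0.2, Seurat 3.0 and the build mm10 are named per the submitters' processing notes.

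Cells with at least 500 UMIs, 300 genes and at most 20% mitochondrial UMIs were kept. Doublets were scored with Scrublet (expected rate 0.08) and cells above 0.25 were removed, 487 in WT and 439 in the knockout. This limit was set with the data seen, because the caller's own limits marked 3 and 111 cells. Clustering used scanpy 1.11.5 with 2000 variable genes without the members and pathway genes, 30 principal components, 15 neighbours and Leiden resolution 1. Clusters were named from marker lists, and keeping clusters 4 and 12 apart was decided after the clusters were seen. UMI counts were summed per library and state, scaled to CPM and compared by their ratio with an exact conditional binomial interval; levels have exact Poisson and shares exact Clopper-Pearson intervals of 95%. States with fewer than 100 cells in a library were not compared. CPM of UMIs is not scaled to gene length, so levels are not compared between genes. Scaling factors of edgeR 4.0.16 (trimmed mean of M values) and of DESeq2 1.42.0 (median of ratios) served as alternatives only. With 1 library per genotype no test was run, and no p-value is given. The ratio was tested on simulated data with known changes.

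The members and lists were chosen with earlier results of these data known. Named genes are the members, the pathway genes that passed the call rule in a state (where more than 4 of a role group passed, the 2 highest and 2 lowest), the highest and lowest of each role group over all keratinocyte-like cells, the 2 genes most like a member with at least 1000 UMIs, and differentiation, granular and sebaceous genes that moved with a result. Of the 8 sebaceous markers, 2 were called lower over all keratinocyte-like cells, with summed levels of 114 and 96.2 CPM. Sequences are those of RefSeq (GRCm38.p6).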

Additional observations from a re-analysis of the deposited data

Results flagged for a closer look

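Alox12e was marked because its difference ran in opposite directions in different keratinocyte-like clusters. The log2 ratio of knockout over WT was 0.89 in suprabasal-like cluster 2, against -0.66 in upper hair follicle-like cluster 1, -0.95 in suprabasal-like cluster 3, -0.61 in cluster 4, -3.20 in cluster 5 and -0.86 in cluster 12. The difference between these ratios was not tested, since each genotype is 1 library. The value in cluster 5 rests on 26 WT and 2 knockout UMIs.

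A signal in cells outside the keratinocytes marked Elovl4 and Abca12. Elovl4 had log2 ratios of 0.66 in dermal papilla-like cluster 0, 2.57 in melanocyte-like cluster 11, 1.38 in unnamed cluster 13, 1.46 in unnamed cluster 17 and 3.65 in fibroblast-like cluster 18. The last rests on 1 WT UMI and on 19 knockout UMIs in 7 of 262 cells. Abca12 had log2 ratios of 2.16 in melanocyte-like cluster 11 and 1.64 in unnamed cluster 17. None of these was tested. The WT and knockout shares of cells with a UMI hardly differed in cluster 11, at 6.49% and 7.48% for Elovl4 and 9.73% and 10.3% for Abca12. In cluster 17 they were 2.58% and 10.3% for Elovl4 and 8.25% and 19.5% for Abca12.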

How the results depend on the processing

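Of 614 values under the other settings listed at the outset, 560 stayed within the interval of the reported value and 54 moved out of it. None of the called values changed sign, while 37 values in all did, each of them called neither way as reported, among them Smpd1 and Pnpla1 in the upper hair follicle-like state (to 0.25 and -0.37 on the log2 scale) and Abca12 in the outer root sheath-like state (to -1.65). No paired analysis was possible because each genotype has 1 library. The 9 pairs of member and state called lower became 4 with Leiden resolution 2. With clusters weighted alike 4 were called lower, but the 2 pairs of the upper hair follicle-like state, a single cluster, have no value under that setting. The pairs that lost the call there were Aloxe3 and Ugcg in the suprabasal-like and Ugcg in the basal-like state. The 2 members lower over all keratinocyte-like cells became 1 with clusters weighted alike, where Alox12e was at -0.47 on the log2 scale. Pairs called higher, 0 as reported, became 2 after thinning to 5000 UMIs and 1 without doublet removal. They became 1 with clusters weighted alike, 1 with score bins weighted alike and 2 with 5% free RNA subtracted. These last settings and the mean over cells carry no counting interval, so a call under them rests on the 1.5-fold ratio alone. Aloxe3 in Fst and Sostdc1-led cells, at a reported ratio of 1.60 (0.825 to 3.11), was called higher in this way. Pathway pairs called higher went from 10 to 5 with at least 100 UMIs and 6 after thinning. Those called lower, 13 as reported, were 7 with clusters weighted alike, but these counts do not cover the same states. The 13 include 7 of the outer root sheath-like state, which is a single cluster and has no value under that setting. Alox12b over all keratinocyte-like cells kept its call under 11 of 11 other settings and Alox12e in the upper hair follicle-like state in 12 of 12. Alox12b in suprabasal-like cells lost it only after thinning. Settings chosen after seeing the data reversed 3 called values of 105: without Flg cells Alox12b in the upper hair follicle-like state was at 0.74, and without Krt79 cells Alox12e was at 0.21 there and 0.21 over all keratinocyte-like cells, all log2. The cause was not tested. Depth limits Alox12b, Aloxe3 and Pnpla1 most, and the spread between animals is unknown.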
